A study of Mus musculus with 4 samples.

Results

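The Egr zinc finger proteins (Egr1, Egr2, Egr3 and Egr4) and the Nr4a orphan nuclear receptors (Nr4a1, Nr4a2 and Nr4a3) are transcription factors whose genes are transcribed soon after a stimulus, without new protein synthesis. They were followed here in mouse brain after permanent middle cerebral artery occlusion (PMCAO). Their probes were found by gene symbol, including older symbols, among all non-control probes of the array, which gave 8 probes for 7 genes out of 41174 probes carrying 27674 gene names. Of the 7 genes, 6 were detected and tested. The probe of Nr4a3 was well above background in 0 of 8 channels.

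Total RNA came from the brain of male C57BL/6J mice aged 8 to 12 weeks, 3 to a group. In the PMCAO mice a filament blocked the middle cerebral artery for good, a model of ischemic stroke. In the sham mice the vessels of the neck were laid open and closed again, and mice of either kind were given saline in the ventricle of the brain. With tissue taken at 24 h and at 6 h, the RNA groups are PMCAO 24 h, PMCAO 6 h, sham 24 h and sham 6 h. Per time, 2 two-colour arrays set PMCAO against sham RNA, sample 1 with PMCAO in Cy5 and sample 2 with PMCAO in Cy3. The sample labels give brain as the tissue, while the series design speaks of the hemisphere contralateral to the filament. Whether the 3 mice were pooled, and whether samples 1 and 2 are separate RNA, is not given in the sources used here, and the p-values may therefore measure technical spread between arrays alone.

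In neurons these genes are switched on by synaptic activity and calcium entry through kinases that act on the DNA-binding factors CREB, SRF and MEF2. Egr1 to Egr3 bind a GC-rich site and are held back by the corepressors Nab1 and Nab2, while Nr4a receptors bind DNA without a known activating hormone. After brain ischemia, rapid response genes are known to be induced early by depolarisation and glutamate, and their transcripts decay quickly. In bulk tissue, fewer cells of a type and less RNA per cell cannot be told apart.

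CREB binds the letters TGACGTCA or their core TGACG, and SRF binds the CArG box. The promoters of Egr4, Nr4a1 and Nr4a2 are shown because Egr4 was the member past the test at 6 h, Nr4a1 holds core matches beside an Egr site, and Nr4a2 had the deepest fall at 24 h. RefSeq windows of the 250 bases before the transcription start (build GRCm38.p6) matched 5 of the 7 members. Capitals mark the core TGACG on either strand, which reads CGTCA when it lies on the other strand, and in Nr4a1 also an Egr site.
Egr4, chr6:85513590-85513839, minus strand: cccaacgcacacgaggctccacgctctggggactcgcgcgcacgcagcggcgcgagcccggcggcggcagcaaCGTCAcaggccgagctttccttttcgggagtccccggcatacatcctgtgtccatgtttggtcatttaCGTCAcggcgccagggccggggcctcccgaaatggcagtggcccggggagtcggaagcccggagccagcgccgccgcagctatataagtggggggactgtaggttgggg
Nr4a1, chr15:101266596-101266845, plus strand: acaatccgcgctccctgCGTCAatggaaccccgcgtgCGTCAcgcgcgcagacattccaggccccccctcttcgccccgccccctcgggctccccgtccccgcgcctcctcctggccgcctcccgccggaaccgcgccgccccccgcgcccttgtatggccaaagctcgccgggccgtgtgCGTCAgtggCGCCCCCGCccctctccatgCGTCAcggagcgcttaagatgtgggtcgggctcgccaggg
Nr4a2, chr2:57124004-57124253, minus strand: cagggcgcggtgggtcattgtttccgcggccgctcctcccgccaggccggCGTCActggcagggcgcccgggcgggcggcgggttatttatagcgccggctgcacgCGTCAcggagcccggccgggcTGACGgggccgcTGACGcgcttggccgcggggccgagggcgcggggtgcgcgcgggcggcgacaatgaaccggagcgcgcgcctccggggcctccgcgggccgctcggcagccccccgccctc

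The Egr4 window held 2 core matches and the Nr4a1, Nr4a2 and Nr4a3 windows held 4 each. Among 32851 windows of the same length over all RefSeq starts, 17.8% held at least 1 core match, 3.90% at least 2 and 0.137% at least 4. The GC share was 68% in the Egr4 window, 74.4% in Nr4a1, 80% in Nr4a2 and 63.6% in Nr4a3. The windows compared were not matched for GC, so how rare such counts are among promoters of like GC was not tested. Egr2 has 5 listed starts. The window of the first held 0 core matches and 0 CArG boxes, and that of the second 0 core matches and 1 CArG box. The window of the third held 2 core matches and 1 CArG box, a motif present in 1.47% of windows. The windows of later starts overlap that of the third. The CArG box and its neighbouring core match, both in capitals, lie within 30 bases on the plus strand, 77 to 48 bases before the third start.
Egr2, chr10:67537792-67537821: tcagtCCATATATGGgcagcgaCGTCAcgg
The Egr site GCGTGGGCG or GCGGGGGCG, found in 3.06% of windows on either strand, occurred once in Nr4a1, 60 to 52 bases before its start. The full octamer TGACGTCA (1.55% of windows) and the Nr4a binding letters AAAGGTCA (1.34% of windows) occurred in 0 of the 5 members' windows, which says only that these letters are not there.

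At 24 h the 6 detected members had log2 ratios of PMCAO over sham below 0 on both arrays. The share of all genes below 0 on both was not counted. The test called 5 of 6 members lower, where 4.52% of all genes passed as lower. Nr4a2, a receptor needed for dopamine neurons, had log2 ratios of PMCAO over sham of -1.25 and -0.88, and averaged -1.06 ± 0.12 (model SE, n = 2 arrays), 2.09-fold lower (adjusted p = 0.0052, limma with Benjamini-Hochberg adjustment over all genes). Egr1, a mediator of plasticity in neurons, stood at -0.54 and -0.73, with a mean of -0.63 ± 0.11 (adjusted p = 0.0202, limma). Both Egr1 arrays lay on the same side of 0 and differed from each other by less than their distance from 0.

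Egr2, known as Krox20 and needed for myelination by Schwann cells, was -0.54 and -0.74 at 24 h, with a mean of -0.64 ± 0.09 (adjusted p = 0.0124, limma). Its probe was printed in 10 spots, so technical spread within an array can be read directly. Over the 4 arrays the SD among these spots was 0.01 to 0.03 in log2 ratio, less than the gap between the 2 arrays at 24 h. Egr3, an activity-dependent factor needed for muscle spindles, was -0.55 and -0.43 (mean -0.49 ± 0.09, adjusted p = 0.0226, limma). Egr4, a family member of neurons and germ cells, was -0.54 and -0.56 (mean -0.55 ± 0.09, adjusted p = 0.0207, limma).

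Nr4a1, an early response receptor of neurons and immune cells, was -0.07 and -0.28 at 24 h, a mean of -0.17 ± 0.10 that did not pass (adjusted p = 0.311, limma; 95% interval -0.42 to 0.07). Of all 19130 genes tested, 12.4% passed at 24 h in either direction and 7.84% as higher, and the median log2 ratio was 0.00. The median over the 6 members was -0.59. Under median centring of the arrays in place of loess, 0 members passed in limma (1 at an unadjusted p under 0.05), where 0.068% of all genes passed. The 5 directions were the same there, with values from -1.22 to -0.64.

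At 6 h, Egr4 was higher in PMCAO brain, with log2 ratios of 1.22 and 1.45. Its mean of 1.33 ± 0.09 is 2.52-fold (adjusted p = 0.00806, limma), and it alone of the 6 members passed, where 0.852% of all genes passed, 0.815% as higher and 0.0366% as lower. Egr3 was 0.49 and 0.58 (mean 0.54 ± 0.09, adjusted p = 0.0786), Egr1 was 0.51 and 0.23 (mean 0.37 ± 0.11, adjusted p = 0.332) and Egr2 was 0.28 and 0.35 (mean 0.32 ± 0.09, adjusted p = 0.334), all above 0 on both arrays and short of the threshold in limma. Nr4a1 was 0.30 and 0.14, averaging 0.22 ± 0.10 (adjusted p = 0.637). Nr4a2 was -0.14 and 0.01, averaging -0.06 ± 0.12, which did not pass in limma and had a 95% interval of -0.35 to 0.22.

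**Figure D1:**
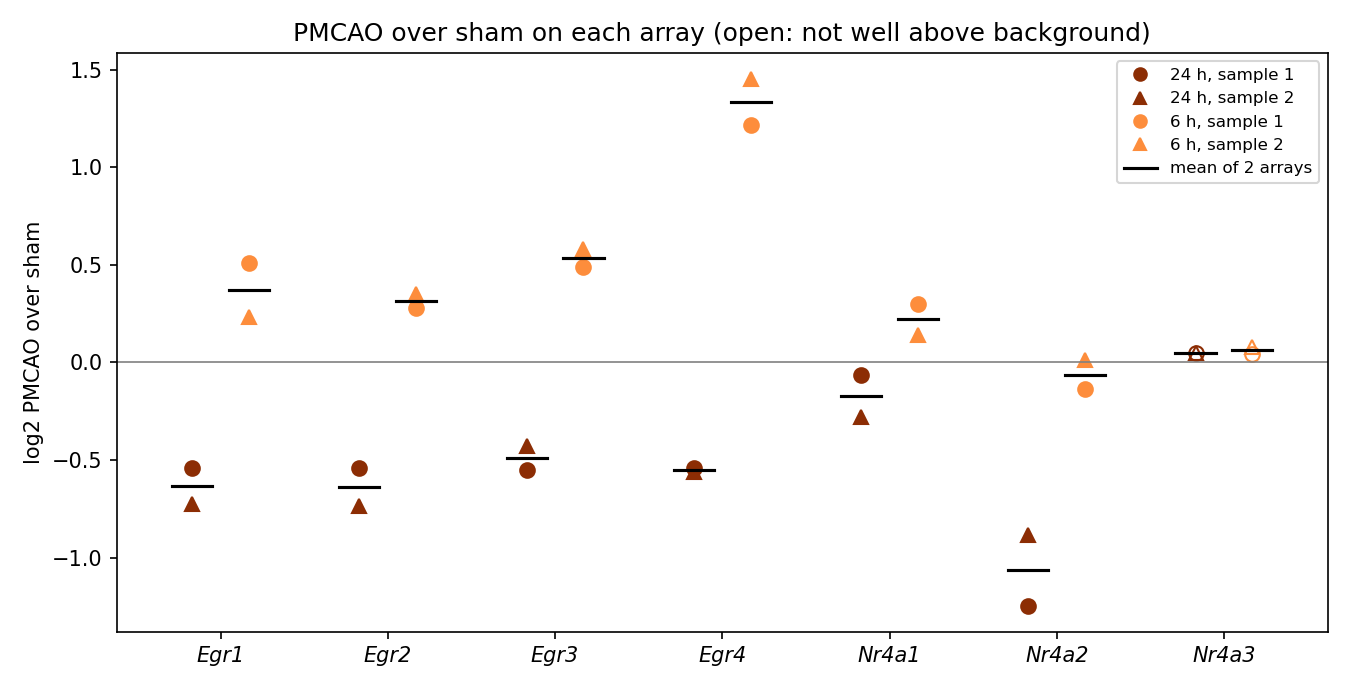
Log2 ratio of PMCAO over sham on each array for the 7 genes (y axis), at 24 h (dark, left of each pair) and 6 h (light, right), with sample 1 as circles, sample 2 as triangles, the mean of 2 arrays as a bar and open symbols for Nr4a3, which was not well above background. The 24 h symbols of the 6 detected genes lie below 0, and the 6 h symbols lie above 0 apart from 1 array of Nr4a2.

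The sample number marks the same dye orientation at both times. With that number as a block, Egr1 (adjusted p = 0.0072), Egr2 (adjusted p = 0.0244) and Egr3 (adjusted p = 0.000761) also passed at 6 h in limma, for 4 of 6 members. In that fit 8.91% of all genes passed, 5.92% as higher and 2.99% as lower. Nr4a1 (adjusted p = 0.0712) and Nr4a2 (adjusted p = 0.701) did not pass there. The same 4 Egr genes passed at 6 h when the 6 h arrays were fitted alone, where 6.8% of all genes passed. That fit has 1 residual degree of freedom per gene, so its p-values rest mostly on the spread shared over genes. Leaving out either 24 h array repeats this fit, since a lone array adds nothing to the spread. With median centring 0 members passed (1 at an unadjusted p under 0.05 in limma).

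The response itself differed between the times. The log2 ratio at 24 h minus that at 6 h was -1.89 ± 0.13 for Egr4 (adjusted p = 0.0084), -1.03 ± 0.12 for Egr3 (adjusted p = 0.0261), -0.95 ± 0.13 for Egr2 (adjusted p = 0.0373) and -1.004 ± 0.15 for Egr1 (adjusted p = 0.0479), all in limma. These 4 of 6 members passed, where 1.59% of all genes passed, 0.298% as lower and 1.3% as higher. The 24 h arrays did not overlap the 6 h arrays in any of the 6 members. The share of all genes without such overlap was not counted, so this is a description. Nr4a2 had a difference of -1.002 ± 0.16 (adjusted p = 0.0587) and Nr4a1 of -0.39 ± 0.14 (adjusted p = 0.282).

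With the sample number as a block, Nr4a2 (adjusted p = 0.000135) and Nr4a1 (adjusted p = 0.0174) passed as well in limma, for 6 of 6 members, where 16.8% of all genes passed and 8.00% did so as lower. Without sample 1 of 6 h the differences ran from -2.005 in Egr4 to -0.31 in Nr4a1, and without sample 2 of 6 h from -1.77 to -0.47. Leaving out sample 1 of 24 h gave differences from -1.90 in Egr4 to -0.50 in Nr4a1, and leaving out sample 2 gave -1.88 to -0.29. With the scanner's processed signals, with normexp without an offset and with the deposited table, Egr1, Egr2 and Egr3 missed the threshold in limma (adjusted p from 0.058 to 0.095), at differences of -1.08 to -0.99, and 1 of 6 members was left. In these fits 0.324%, 0.878% and 0.303% of all genes passed, in that order, against 1.59% in the main fit. Egr4 was the member that passed under every alternative tried except median centring, which gave 0 members in limma (1 at an unadjusted p under 0.05).

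Among 19120 genes with a value on all 4 arrays, 5.52% lay above 0 on both 6 h arrays and below 0 on both 24 h arrays, and 5 of the 6 members (Egr1 to Egr4 and Nr4a1) did so. The 4 Egr genes were among 39 genes, or 0.204% of those tested, that passed as lower at 24 h, passed the test of the difference and averaged above 0 at 6 h. Only 3 genes, or 0.0157% of those tested, passed as higher at 6 h and as lower at 24 h. They were Egr4, Bdnf and C330006P03Rik, an unnamed transcript. Bdnf, a neurotrophin released by active neurons, was -0.40 ± 0.09 at 24 h and 0.95 ± 0.09 at 6 h. C330006P03Rik, which was named after its values were seen, was -1.73 ± 0.08 at 24 h and 1.14 ± 0.08 at 6 h.

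The normalised log2 intensities show in which arm the members moved. Egr4 read 13.09 and 13.11 in PMCAO 24 h and 14.52 and 14.70 in PMCAO 6 h, against 13.63 and 13.68 in sham 24 h and 13.30 and 13.25 in sham 6 h. PMCAO 6 h was highest and PMCAO 24 h lowest, and none of the 4 groups overlapped. Egr3 read 10.98 and 11.11 in PMCAO 24 h and 12.41 and 12.43 in PMCAO 6 h, against 11.53 and 11.54 in sham 24 h and 11.92 and 11.85 in sham 6 h. Its 4 groups did not overlap either, in the order PMCAO 6 h, sham 6 h, sham 24 h, PMCAO 24 h from high to low. How many of all genes had 4 separate groups was not counted.

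Egr1 read 13.90 and 13.76 in PMCAO 24 h and 14.87 and 14.73 in PMCAO 6 h, against 14.44 and 14.48 in sham 24 h and 14.37 and 14.50 in sham 6 h. Egr2 read 10.54 and 10.47 in PMCAO 24 h and 11.51 and 11.49 in PMCAO 6 h, against 11.08 and 11.20 in sham 24 h and 11.22 and 11.14 in sham 6 h. In both genes the sham groups overlapped each other and lay between the PMCAO groups. Nr4a1 read 14.50 and 14.45 in PMCAO 24 h and 15.39 and 15.28 in PMCAO 6 h, against 14.57 and 14.73 in sham 24 h and 15.09 and 15.14 in sham 6 h, so both arms were lower at 24 h. Nr4a2 read 10.59 and 10.89 in PMCAO 24 h and 11.66 and 11.81 in PMCAO 6 h, against 11.84 and 11.77 in sham 24 h and 11.80 and 11.80 in sham 6 h. PMCAO 24 h stood apart, and the other 3 groups of Nr4a2 overlapped. Nr4a3 lay between 6.43 and 6.69 in all 8 channels, none well above background, so no level or change is given for it.

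**Figure D2:**
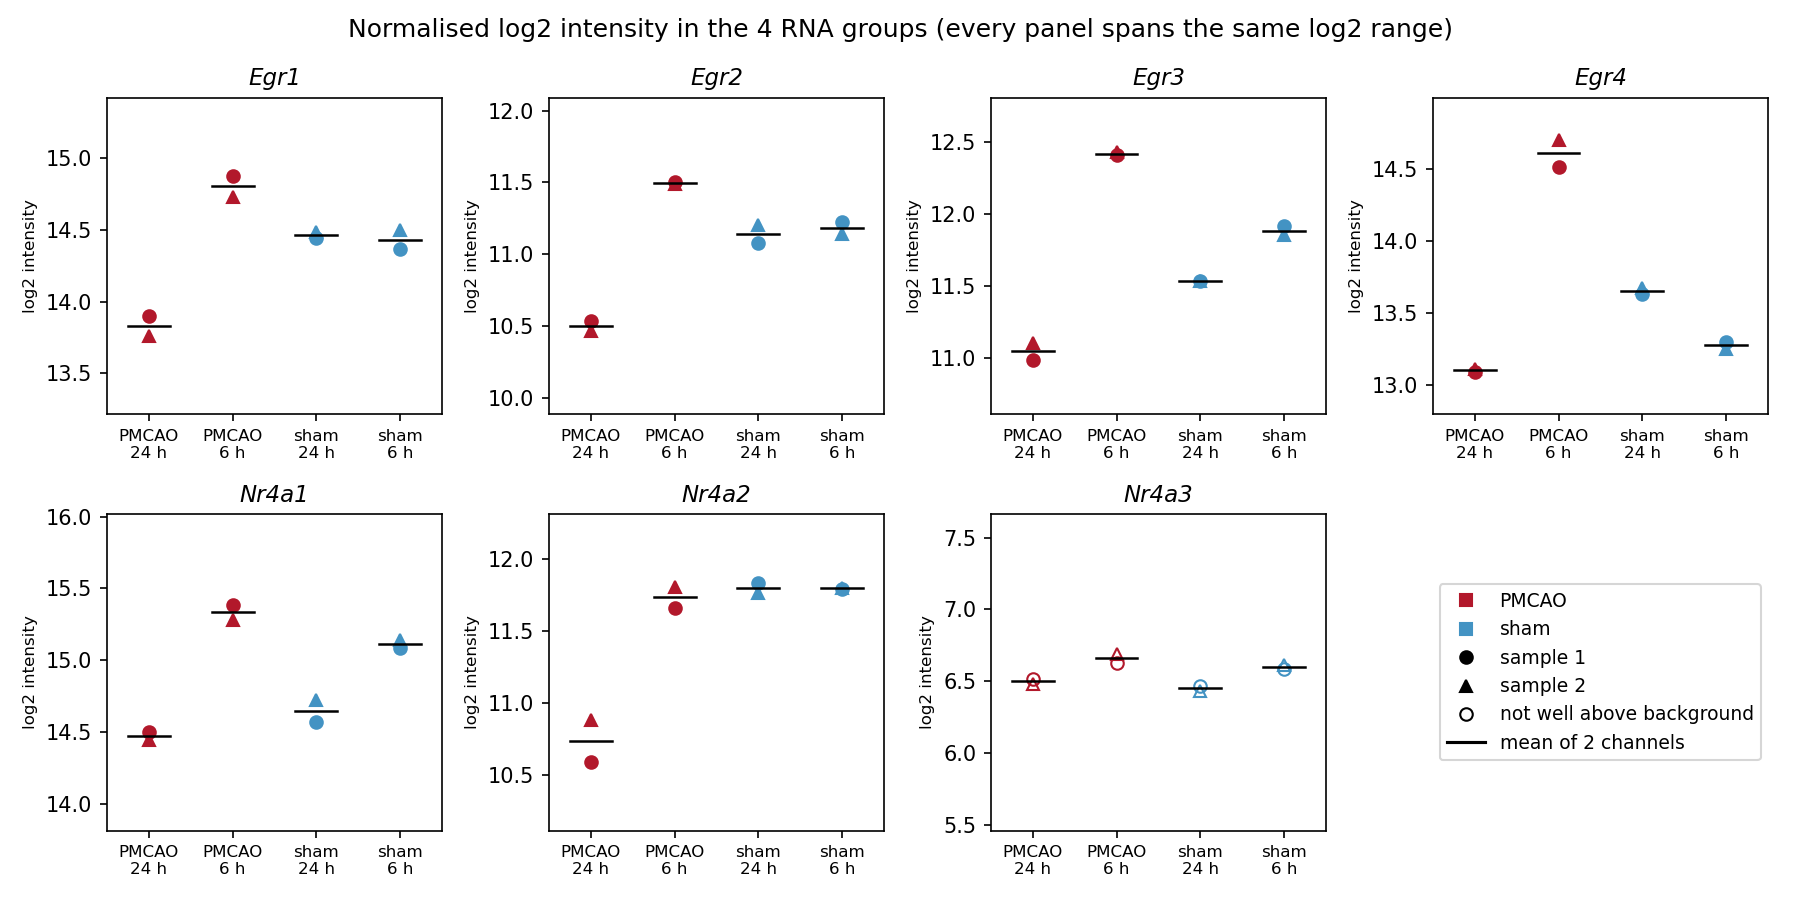
Normalised log2 intensity (y axis, the same span in every panel but a different start) of the 7 genes in PMCAO 24 h, PMCAO 6 h, sham 24 h and sham 6 h, with a symbol per channel (circle for sample 1, triangle for sample 2) and a bar for the mean of 2 channels. PMCAO 24 h is the lowest group in the 6 detected genes, and PMCAO 6 h is the highest in all of those but Nr4a2.

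Between the times the PMCAO arm was lower at 24 h in 6 of 6 members, where 20.3% of all genes passed, 9.15% as lower and 11.1% as higher. The change of log2 intensity was -1.51 ± 0.08 in Egr4 (adjusted p = 3.01e-05) and -1.38 ± 0.07 in Egr3 (adjusted p = 3.01e-05), in limma's separate-channel model. Egr4 was thus 2.85-fold lower at 24 h and Egr3 2.60-fold lower. Nr4a2 changed by -0.997 ± 0.11 (adjusted p = 0.000647), Egr2 by -0.99 ± 0.08 (adjusted p = 0.000144), Egr1 by -0.97 ± 0.08 (adjusted p = 0.000239) and Nr4a1 by -0.86 ± 0.08 (adjusted p = 0.000337, all in limma). Without normalisation between arrays, 2 members passed (Egr3 at -1.17 and Egr4 at -1.32), where 0.649% of all genes passed. The changes of the other 4 were -0.81 to -0.69. With median centring 0 passed in limma (6 at an unadjusted p under 0.05), where 0.0262% of all genes passed.

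The sham arm moved less and not in 1 direction. Nr4a1 was lower at 24 h by -0.47 ± 0.08 (adjusted p = 0.0237), Egr3 was lower by -0.35 ± 0.07 (adjusted p = 0.0447) and Egr4 was higher by 0.38 ± 0.08 (adjusted p = 0.045), in limma's separate-channel model. These were 2 lower and 1 higher of 6 members, where 3.48% of all genes passed, 1.59% as lower and 1.89% as higher. Egr4 did not pass with the sample number as a block (adjusted p = 0.0711, limma), a fit in which 5.34% of all genes passed. The other changes did not pass, with 95% intervals of -0.16 to 0.22 for Egr1, -0.22 to 0.13 for Egr2 and -0.24 to 0.25 for Nr4a2. In sham, Egr3 was -0.32 without sample 1 of 6 h and -0.38 without sample 2 of 6 h. Nr4a1 was -0.55 without sample 2 of 24 h. Such fits leave 1 array at a time, and their calls are not listed. Over 15 alternatives, the sham change no longer passed in 9 for Egr3, 8 for Egr4 and 4 for Nr4a1.

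**Figure D3:**
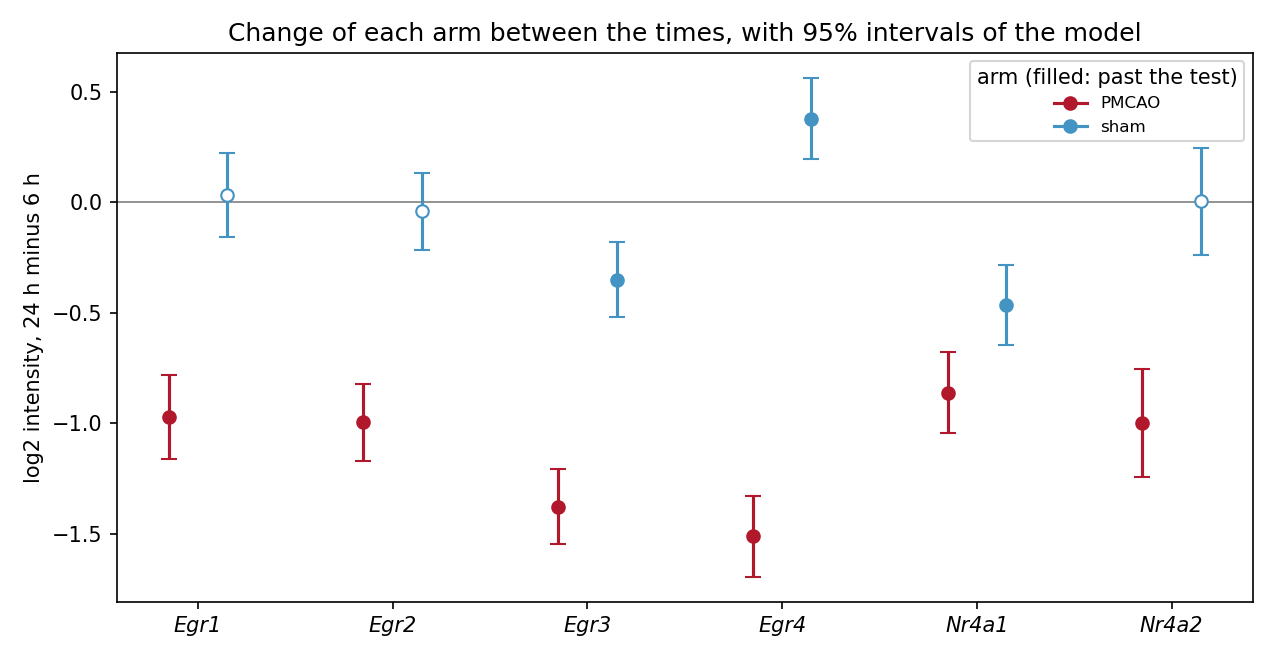
Change of log2 intensity, 24 h minus 6 h (y axis), of the 6 detected genes in the PMCAO arm (red, left) and the sham arm (blue, right), with 95% intervals of the model and filled symbols for changes past the test. The PMCAO changes lie between -1.51 and -0.86, and the sham changes between -0.47 and 0.38.

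Egr3 has 2 probes. The brighter, at chr14:64726656-64726715 in the mm7 coordinates of the files, stood for the gene above. The dimmer probe gave smaller changes. It read -0.40 and -0.10 at 24 h and 0.10 and 0.34 at 6 h, in log2 PMCAO over sham, so its signs were those of the brighter probe on all 4 arrays. Its means, -0.25 ± 0.11 at 24 h (adjusted p = 0.235) and 0.22 ± 0.11 at 6 h (adjusted p = 0.80), did not pass in limma. Its change between the times in the PMCAO arm, -0.51 ± 0.09, did (adjusted p = 0.00692, limma over all probes). It was not well above background in 1 of its 8 channels, and with the mean of both probes Egr3 no longer passed at 24 h, at -0.37 (adjusted p = 0.0576, limma). With that mean it also missed the threshold in limma for the difference between the times, at -0.75 (adjusted p = 0.0644), and for the change in sham, at -0.36 (adjusted p = 0.14), while the change in PMCAO passed, at -1.11 (adjusted p = 0.000687).

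The Nr4a2 probe, at chr2:57108976-57109035 on the minus strand (mm7), is shown because the deepest fall at 24 h rests on it. It has 1 frame without a stop codon.
Nr4a2 probe: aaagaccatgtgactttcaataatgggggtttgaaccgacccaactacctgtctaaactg
A cross-reaction between family members was not tested.

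Over the 4 arrays of log2 ratios, Egr1 and Egr2 were the most alike pair of members, at a Euclidean distance of 0.25, and Egr4 and Nr4a2 the least alike, at 2.12. Nearest genes were sought among RefSeq symbols, leaving out members and clone or predicted-gene names. The 3 nearest of these to Egr4 were Bdnf at 0.63, Mest at 0.87 and the neuropeptide precursor Nts at 0.90. Those of Egr3 were the prohormone convertase Pcsk1 at 0.15 and the MAP kinase phosphatases Dusp6 at 0.16 and Dusp14 at 0.30. Egr1 was nearest to the noncoding RNA Kcnq1ot1 at 0.21, and Egr2 to the small heat shock protein Hspb3 at 0.17. Hspb3 was also among the 3 nearest to Egr1. The others near Egr1 and Egr2 were Sgk2 at 0.33 from Egr1, and Lsm14b at 0.18 and the kainate receptor subunit Grik1 at 0.22 from Egr2. Nr4a2 was nearest to the kinase Camkk2 at 0.28, Ugt8a, which makes myelin galactolipids, at 0.34 and the muscle protein Tcap at 0.37. These distances rest on 4 arrays and are a description.

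The remaining members have 1 probe each, in mm7 coordinates. That of Egr1 lies at chr18:35240842-35240901, of Egr2 at chr10:67145376-67145435, of Egr4 at chr6:85540804-85540863 and of Nr4a1 at chr15:101260484-101260543. The Nr4a3 probe is placed at chr4:48081632-48084818, a span of 3187 bases.

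Of 18 tested factors and kinases of the SRF, ETS, CREB and MEF2 routes, 1 was higher and 1 lower at 24 h and 0 passed at 6 h (limma; an unadjusted p was under 0.05 for 2 on the higher side and 3 on the lower). That is a share near the 12.4% of all genes that passed at 24 h, so the count says nothing about the list. Those past the test at 24 h were the ETS factor Elk3, at 0.43 ± 0.08 (adjusted p = 0.0276), and Camk4, a calcium-dependent kinase of CREB, at -0.66 ± 0.09 (adjusted p = 0.0127). Of 6 Egr corepressors and partners, which include Nab1 and Nab2, 0 passed at 24 h (2 lower at an unadjusted p under 0.05) and 0 at 6 h (0 unadjusted, limma). Nab2, chosen after its values were seen, was -0.05 ± 0.09 at 24 h and 0.12 ± 0.09 at 6 h.

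At 24 h 7.84% of all genes passed as higher and 4.52% as lower, and at 6 h 0.815% and 0.0366%. Of 24 tested genes described as Egr targets, 14 were higher and 2 lower at 24 h, with a median log2 ratio of 0.57. At 6 h 4 were higher and 0 lower, with a median of 0.21. The medians over all genes were 0.00 at 24 h and -0.01 at 6 h. The higher ones at 24 h included the chemokine Ccl2 (4.18 ± 0.15), the cytokine Il1b (2.88 ± 0.09), the matrix protein Thbs1 (2.38 ± 0.09) and the adhesion molecule Icam1 (2.20 ± 0.09), each with an adjusted p from 0.000188 to 0.000222 in limma. At 6 h those that passed included Ccl2 (2.49 ± 0.15), the kinase Sphk1 (1.28 ± 0.09) and Icam1 (0.85 ± 0.09). The lower ones at 24 h, named after their values were seen, were the synaptic plasticity gene Arc at -0.52 ± 0.08 (adjusted p = 0.0189) and the GABA receptor subunit Gabra4 at -0.59 ± 0.09 (adjusted p = 0.0174, limma).

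Of 14 tested Nr4a partners and genes described as Nr4a targets, 5 were higher and 2 lower at 24 h, and 1 higher and 0 lower at 6 h. Their median log2 ratios were 0.15 and 0.04. Among all genes, 7.84% were higher and 4.52% lower at 24 h, and 0.815% higher and 0.0366% lower at 6 h. The metabolic kinase Pdk4 was higher at both times, at 1.23 ± 0.09 at 24 h (adjusted p = 0.00169) and 0.79 ± 0.09 at 6 h (adjusted p = 0.0339, limma). At 24 h the secreted phosphoprotein Spp1 was 2.98 ± 0.11 and the vesicular monoamine transporter Slc18a2 0.59 ± 0.08. Rxrg, a retinoid receptor that can pair with Nr4a proteins and is expressed in the striatum, was -1.55 ± 0.11 at 24 h (adjusted p = 0.00107, limma).

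Other rapid primary response genes, such as those of AP-1 subunits, are likewise transcribed soon after a stimulus. Of 20 tested, 15 were higher and 1 lower at 24 h (median 0.90), and 12 were higher and 0 lower at 6 h (median 0.86). Of all genes, 7.84% were higher and 4.52% lower at 24 h, and 0.815% higher and 0.0366% lower at 6 h. At 24 h 19 of the 20 lay above 0, while 0 of the 6 Egr and Nr4a genes did. The AP-1 partner Maff was 3.16 ± 0.11 at 24 h and 2.32 ± 0.11 at 6 h, and the stress factor Atf3 was 3.21 ± 0.13 at 24 h and 2.66 ± 0.13 at 6 h. Gadd45b, a stress-response regulator, was 1.98 ± 0.09 at 24 h and 1.56 ± 0.09 at 6 h. Ccn1, a secreted matrix protein, was 2.35 ± 0.10 at 24 h and 1.63 ± 0.10 at 6 h. In the test of the difference between the times, 0.298% of all genes passed as lower at 24 h and 1.3% as higher. Of the 20 genes, 2 passed as lower, as 4 of the 6 members did, and 1 as higher. The lower ones were Fosb, a subunit of AP-1, at 0.96 ± 0.11 at 24 h and 2.10 ± 0.11 at 6 h (adjusted p of the difference = 0.0359), and Npas4, an activity-dependent neuronal factor named after its values were seen. Npas4 was 0.40 ± 0.20 at 24 h, where it did not pass (adjusted p = 0.255), and 2.60 ± 0.20 at 6 h (adjusted p of the difference = 0.0342, limma). The 1 lower gene at 24 h was Arc. In the sham arm 0 of these 20 genes were higher and 9 were lower at 24 h than at 6 h, beside 1 higher and 2 lower of the 6 members. There 1.89% of all genes were higher and 1.59% lower.

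**Figure D4:**
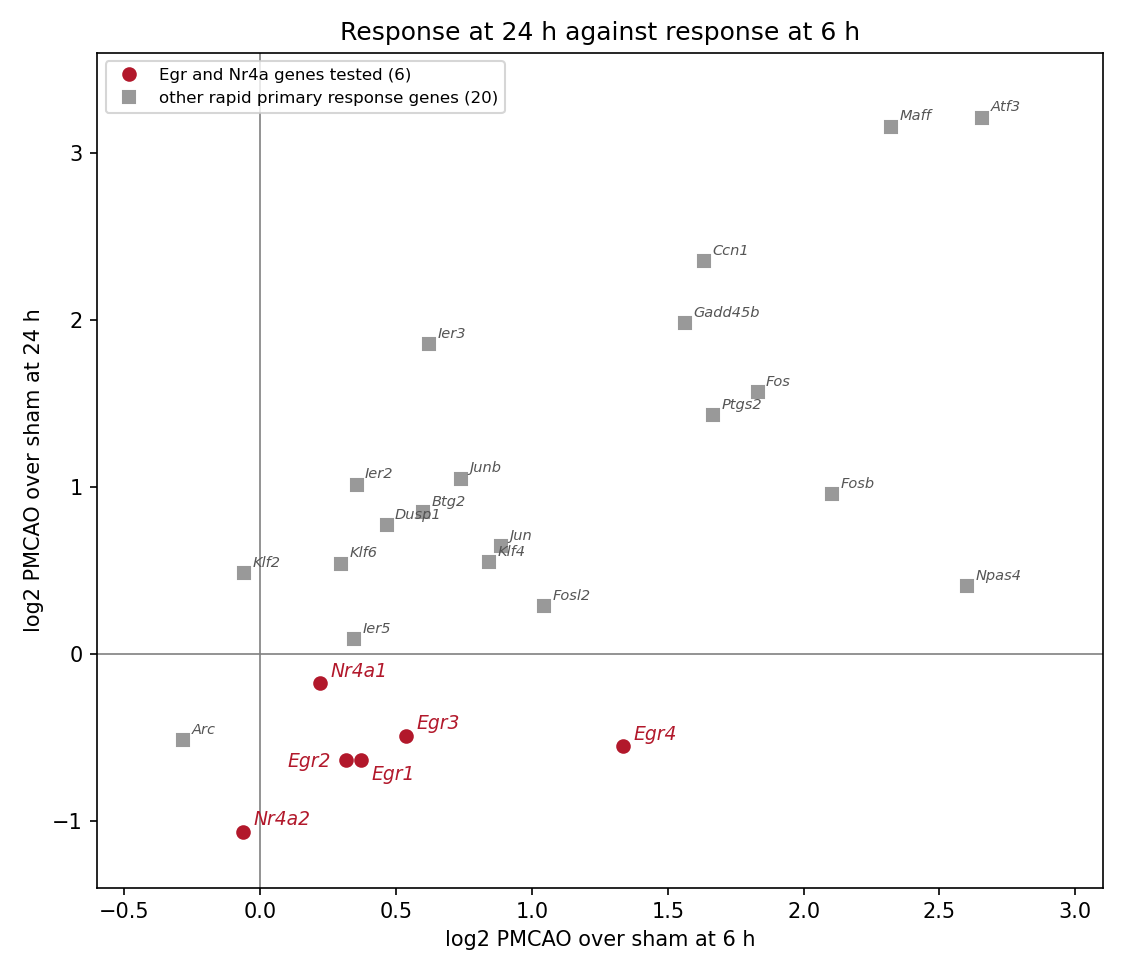
Log2 PMCAO over sham at 24 h (y axis) against 6 h (x axis) for the 6 Egr and Nr4a genes tested (red circles) and 20 other rapid primary response genes (grey squares), each point being the mean of 2 arrays per time. The red circles all lie below 0 on the y axis, while 19 of the 20 grey squares lie above it.

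Markers of some cell types also differed between PMCAO and sham at 24 h, in both directions, while those of others did not. Among all genes, 4.52% passed as lower and 7.84% as higher at 24 h. Of 8 markers of striatal medium spiny neurons, which express Egr1, Nr4a1 and Rxrg, 7 were lower at 24 h, among them the dopamine receptor Drd1 at -0.62 ± 0.08. Their summed normalised signal was 65813 to 80852 in PMCAO 24 h, against 124896 to 130709 in sham 24 h. At 6 h 0 of the 8 passed (3 lower at an unadjusted p under 0.05, limma), at 99275 to 108000 in PMCAO 6 h and 113735 to 115490 in sham 6 h. Of 9 markers of neurons in general, 0 passed at either time (0 at an unadjusted p under 0.05, limma), with a sum of 238544 to 250584 in PMCAO 24 h and 270812 to 278419 in sham 24 h.

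Of 7 microglia markers 4 were lower at 24 h, where 4.52% of all genes were. Siglech at -1.01 ± 0.09 and Gpr34 at -1.37 ± 0.13 had the smallest p, and P2ry12, named after its value was seen, had the deepest fall, at -1.72 ± 0.17 (adjusted p = 0.0038, limma). The 7 markers had a sum of 26386 to 28899 in PMCAO 24 h and 31103 to 33772 in sham 24 h. Of 8 neutrophil and monocyte markers 6 were higher at 24 h and 3 at 6 h, where 7.84% and 0.815% of all genes were. These markers were led by S100a9 at 5.84 ± 0.10 at 24 h and 2.61 ± 0.10 at 6 h. Their sum was 62806 to 74196 in PMCAO 24 h and 1783 to 1980 in sham 24 h, and 12543 to 13627 in PMCAO 6 h and 2664 to 2983 in sham 6 h. The part of any of these cell types in the members' values was not tested.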

How the data were processed

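The scanner tables the authors deposited give, for each spot and dye, an intensity (mean, local background and processed) and the log10 of processed red over green. Agilent Feature Extraction 9.5.3.1 made them, per the file headers and the submitters' processing notes. A score per spot stands in the deposited series table. In size it matched processed red over green as a linear ratio on 100% of spots (tolerance 0.005 plus a rounding term). Every sample 1 value was negative and every sample 2 value positive, the medians being -0.91 and 0.95 for 24 h, then -0.96 and 0.96 for 6 h. The meaning of the sign and any centring are not given in the sources used here.

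Mean signals were corrected by normexp (offset 50), normalised by loess within arrays with control spots at weight 0, and turned to log2 PMCAO over sham in limma 3.58.1 under R 4.3.3. Outlier spots (112 to 142 an array) were dropped and saturated ones (0 to 2) kept. Values were averaged over the spots of a probe, and each gene took its brightest probe. Testing needed a signal well above background on both arrays of some RNA group. That level was reached by 66.3% to 73.7% of PMCAO spots and 67.3% to 73.6% of sham spots. Of 41174 probes, 22951 were named by accession, 6661 by symbol and 3097 by older symbol in RefSeq (GRCm38.p6), and 8465 kept the files' name. Probe coordinates are mm7. Probes of Tec, a kinase that shares an older symbol with Nr4a3, were left out.

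limma fitted 1 coefficient per time on 4 arrays (19130 genes, 2 residual and 3.53 prior degrees of freedom). Each arm between times came from limma's separate-channel model after Aquantile (19120 genes without a missing spot, intraspot correlation -0.415). Calls used Benjamini-Hochberg at 0.05. The fits were also run on simulated data with known changes. For the separate-channel model the simulated noise was independent between channels and equal for all genes, unlike the data. That run therefore did not test the model's p-values. Sample numbers pair arrays by dye orientation, as the labels give it. Deviations of same-numbered arrays correlated at 0.718 across 19120 genes. With a single slide and scan, batches could not be tested. The number of arrays limits the precision. Alternatives covered background correction, normalisation, the dim-probe filter, probe choice, each array left out and the sample number as a block.

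Members, lists and tests were chosen with earlier results of these data known. Named genes are all members, for each member past a ratio test its 3 nearest genes over 4 arrays, up to 4 list genes per time by smallest p, and 2 per marker list, apart from a few items that are not reported here. Lists and markers are given by counts and medians with no set test. For comparison, 7.84% of all genes passed as higher at 24 h and 4.52% as lower. Remaining marker lists at 24 h had 3 of 7 higher (astrocyte), 2 of 6 (endothelium), 2 of 7 (pericyte, smooth muscle and meninges) and 1 of 3 (red blood cell), 1 of 5 lower (oligodendrocyte precursor), and 0 of 6, 3 and 5 for oligodendrocyte, lymphocyte, and choroid plexus and ependyma (limma; 1 of each list at an unadjusted p under 0.05). Plots used matplotlib 3.10.9 under Python 3.11.15.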

Additional observations from a re-analysis of the deposited data

Results flagged for a closer look

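For 4 members the log2 ratio of PMCAO over sham differed between the times by limma's test of the difference itself. The ratio at 24 h minus that at 6 h was -1.004 for Egr1, -0.95 for Egr2, -1.03 for Egr3 and -1.89 for Egr4. On the arrays, Egr1 was below 0 on both at 24 h and above 0 on both at 6 h, and so were Egr2, Egr3 and Egr4.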

How the results depend on the processing

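Over the 6 tested members and 5 comparisons, 426 alternative values were computed, of which 343 kept direction and side of the threshold, 59 kept the direction but no longer passed, 17 newly passed and 7 changed sign. The 7 were among values near 0. The 426 values are not independent checks. Settings that changed only which genes were tested, the block or an array of the other time left a ratio unchanged, so its sign could not turn. The deposited table matched the processed signals in size and nearly repeats that setting. With an array left out, Nr4a2 at 6 h was -0.137 to 0.012 (positive without sample 1 of 6 h), and in sham between the times Egr1 was -0.033 to 0.098 (negative without sample 1 of 6 h), Egr2 -0.104 to 0.022 and Nr4a2 -0.032 to 0.039 (turned without sample 1 of 24 h). In the same sham comparison Egr2 was 0.043 with median centring and 0.17 with no normalisation between arrays, and Nr4a2 was -0.023 from the scanner's processed signals. At 24 h 5 members passed under the alternatives without an array left out, except 0 with median centring and 4 with the mean of all probes. The share of all genes that passed there varied, from 8.39% with no filter on dim probes to 39.7% with the replicate block, apart from median centring. With a 24 h array left out, the 5 members that passed in the main fit lay between -1.25 and -0.43. At 6 h, where 1 member passed, 0 did with median centring. It was 4 with the replicate block (8.91% of all genes) or with the 6 h arrays fitted alone (6.8%). Leaving out a 24 h array repeats the fit of the 6 h arrays alone. With a 6 h array left out, Egr4 was 1.22 to 1.45 at 6 h. For the difference between the times, where 4 passed, 0 did with median centring. It was 1 with processed signals (0.324% of all genes), normexp without an offset (0.878%) or the deposited table (0.303%). It was 3 with a signal required in all 8 channels (1.03% of all genes) or every probe tested on its own (1.23%), with Egr1 lost. The mean of all probes also gave 3 (1.96%), with Egr3 lost. With the replicate block it was 6, where 16.8% of all genes passed. With an array left out, the members' differences lay between -2.005 and -0.29. For PMCAO between the times, where 6 passed, 0 did with median centring and 2 with no normalisation between arrays (0.649% of all genes). For sham between the times, where 3 passed, 0 did with median centring or no normalisation between arrays (0% of all genes in both). It was 1 with normexp without an offset (2.75% of all genes) or no filter on dim probes (1.75%). It was 2 with processed signals (4.17%), the mean of all probes (2.94%) or the replicate block (5.34%). With a 6 h array left out, Egr3 was -0.38 to -0.32 in sham. In limma 0.068% of all genes or fewer passed with median centring. The cause was not tested. The replicate block changed no other member's call than those given in the report. An array left out leaves 1 dye orientation at that time, and a lone array is assumed to vary like those of the other time. Signal near background limits Nr4a3 and the dimmer Egr3 probe.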
